A study of Drosophila melanogaster with 12 samples.

Results

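Drs, Mtk, IM4 and IM14 are genes for small secreted immune peptides of Drosophila melanogaster. They were chosen by symbol, and all 4 were found among the 15222 genes of the count table. Their RNA was measured in fat body, the larval organ that stores nutrients and secretes most proteins of the body fluid, taken from wandering female larvae of the third instar. All larvae carried UAS-Dcr2, which raises RNA interference, and r4-GAL4, a driver active in the fat body, and grew at 25 °C. In the groups labelled InRi the other parent (VDRC stock 992) brought UAS-InRi, a hairpin construct aimed at InR, the insulin receptor gene, which the driver expresses. In the control groups the other parent (VDRC stock 60000) was w1118, which has no construct. Both genotypes were reared on food with sucrose at either 0.15 M or 0.7 M, and each of the 4 groups has 3 libraries. The labels do not say whether the 3 libraries of a group came from separate cultures, so p-values measure the spread between these libraries only.

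Fungi and many Gram-positive bacteria activate Toll in the fly. A protease cascade in the blood cleaves the ligand spz, spz binds the receptor Tl, and the NF-kappaB factors Dif and dl then enter the nucleus and turn on peptide genes in the fat body. Drs encodes Drosomycin, an antifungal peptide held together by disulfide bonds and a common readout of Toll. Mtk encodes Metchnikowin, a proline-rich peptide that acts on fungi and Gram-positive bacteria and is induced by Toll and also by Imd, the second immune pathway of the fat body. IM4 and IM14, named Dso1 and Dso2 (Daisho) in a later annotation, encode short Toll-induced peptides that were first seen in the blood of infected flies and protect against filamentous fungi.

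In that annotation (BDGP6, used for names, exonic lengths and neighbours only) Drs lies on chromosome arm 3L as 1 exon of 387 bp. Mtk is 1 exon of 268 bp on 2R, and it lies inside Stacl on the same strand. IM4 (767 bp in 3 exons) and IM14 (223 bp in 2 exons) are neighbours on 2R, on opposite strands and 1070 bp apart. Among the other neighbours YT521-B, kst, CG12010, SRPK, Ipk1 and CG43223 had enough counts for a test, and none of them passed between the genotypes. Ipk1, the nearest at 112 bp from IM14, differed by -0.02 log2 units between the genotypes on 0.15 M sucrose (adjusted p = 0.990) and by -0.61 on 0.7 M sucrose (adjusted p = 0.617). CG43223, a part of Stacl in the older naming, differed by -0.26 (adjusted p = 0.824) and -1.04 (adjusted p = 0.441). Since Mtk and Stacl share a strand, any reads from the Stacl transcript at this place could not be told apart from Mtk reads. Whether an exon of Stacl covers Mtk was not examined.

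The libraries held 872755 to 7114144 counts, and levels are given as CPM, counts scaled to a common library size. At these depths a floor of 3 counts was 0.423 to 3.27 CPM. Control 0.15 M replicate 2 stood apart: its Spearman correlation with the other libraries was 0.676 to 0.774, against 0.859 to 0.974 among the other 11, and it held 7628 detected genes. InR itself, at which the construct is aimed, was not lower but higher under the label InRi, at 109 to 163 CPM against 26.0 to 61.1 CPM in control. From these counts, InR transcript cannot be told apart from reads of the construct, nor can an exchange of the genotype labels be told from a true rise. Every direction of InRi against control below is therefore that of libraries carrying this label, and is not read as an effect of InR loss. It would turn if the labels were exchanged, whereas a difference with sucrose would keep its sign and change only its genotype name. The 8 fat body markers, among them Lsp2, Fbp1 and the lipoprotein gene Rfabg, summed to 160848 to 355974 CPM in the 12 libraries, and none was at 0 in any group. In bulk tissue of this kind, fewer cells of a type and less RNA per cell cannot be told apart.

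Drs was abundant in every library labelled InRi and lay far lower in every control library. On 0.15 M sucrose it was measured at 355, 291 and 63.1 CPM in control replicates 1, 2 and 3 and at 6433, 1709 and 4633 CPM in the InRi replicates. The lowest InRi library was thus several times above the highest control library, although control replicate 3 lay well below its 2 companions. The fitted difference was 4.17 log2 units (SE 0.66), an 18.0-fold rise with an edgeR adjusted p of 0.00849. With 0.7 M sucrose the control replicates had 49.5, 74.7 and 71.9 CPM of Drs, and the InRi replicates had 3528, 5607 and 3042 CPM. Here the control libraries lay close together, and again no library of one genotype reached the range of the other. The rise was 5.96 log2 units (SE 0.72), or 62.3-fold, with an adjusted p of 0.00108.

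The rise of Drs kept an adjusted p under 0.05 in each of the 12 fits that left out 1 library, at most 0.0366 on 0.15 M sucrose and 0.0105 on 0.7 M sucrose. Without the library that stood apart it was 4.33 log2 units on 0.15 M sucrose and 5.99 on 0.7 M sucrose. The call on 0.15 M sucrose ended when only the 6 libraries of that comparison were fitted (4.16 log2 units, adjusted p = 0.214). Per length, Drs ranked between 6 and 12 among all genes with a known length in the 6 libraries labelled InRi. In the 6 control libraries its rank ran from 86 to 414. It took 0.222% to 0.714% of all counts in the InRi libraries, against 0.00534% to 0.0372% in control.

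IM4 was low in the control libraries, with 0 to 3 counts in 5 of the 6 and 78 counts in control 0.15 M replicate 1, and high in every InRi library. In the control replicates on 0.15 M sucrose it was measured at 21.3, 2.23 and 0.285 CPM, and in the InRi replicates at 153, 52.7 and 131 CPM. Control replicate 1 was far above the other 2 control libraries but still below every InRi library. The fitted difference was 3.71 log2 units (SE 0.88), which did not pass (adjusted p = 0.0571). It passed without control 0.15 M replicate 1 (6.91 log2 units, adjusted p = 0.00266) and without control 0.15 M replicate 2 (3.35, adjusted p = 0.0339). With 0.7 M sucrose IM4 was at 0.591, 0 and 0 CPM in control, 3 counts in all, and InRi libraries had 192, 253 and 116 CPM. The rise passed with an adjusted p of 0.00186, and it passed in all 12 omissions (adjusted p up to 0.0260). From the summed counts, 2497 against 3, the ratio was 674, with a 95% interval for counting error only of 230.2 to 3268. The fitted value of 9.24 log2 units (SE 1.32) rests on those 3 counts, and it became 12.63 without control 0.7 M replicate 1, which held all of them.

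IM14, the neighbour and relative of IM4, had nearly the same pattern. The control replicates on 0.15 M sucrose held 11.2, 0 and 0.571 CPM, and the InRi replicates held 116, 44.1 and 78.9 CPM. The same control library, replicate 1, was the high one, and the groups did not overlap. The rise of 4.12 log2 units (SE 0.78) passed with an adjusted p of 0.0202. That call ended when InRi 0.15 M replicate 1 or 3 was left out (largest adjusted p 0.0815), and the difference grew to 7.50 log2 units without control 0.15 M replicate 1. It ended too when only the 6 libraries compared were fitted (4.17 log2 units, adjusted p = 0.348). The control replicates on 0.7 M sucrose held 0.394, 0.222 and 0 CPM, again 3 counts in all, and the InRi replicates held 125, 126 and 73.3 CPM. The rise passed (adjusted p = 0.00121, and up to 0.0189 in the 12 omissions), with a ratio of summed counts of 394 and a counting interval of 134 to 1911.

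Mtk was low in every library, and its differences between the genotypes were small beside those of the other 3. On 0.15 M sucrose its level was 4.63, 0 and 6.85 CPM in the control replicates, and the InRi replicates had 10.4, 8.10 and 10.1 CPM. The InRi libraries lay close together just above the control libraries, and the library at 0 was control 0.15 M replicate 2, where 3 counts would be 2.23 CPM. The difference of 1.11 log2 units (SE 0.50) did not pass (adjusted p = 0.259). With 0.7 M sucrose the control replicates had 11.8, 14.2 and 7.62 CPM of Mtk, and the InRi replicates had 26.3, 39.2 and 34.8 CPM. Every InRi library was above every control library, but the difference of 1.5 log2 units (SE 0.46) did not pass either (adjusted p = 0.0823). It passed without control 0.15 M replicate 2 (1.49 log2 units, adjusted p = 0.000876) and in the DESeq2 test (1.52, adjusted p = 0.00175). That library is not part of this comparison, and its omission also gave Drs its smallest adjusted p on 0.7 M sucrose (9.52e-05). IM4 and IM14 had theirs without control 0.15 M replicate 1, also outside this comparison.

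**Figure D1:**
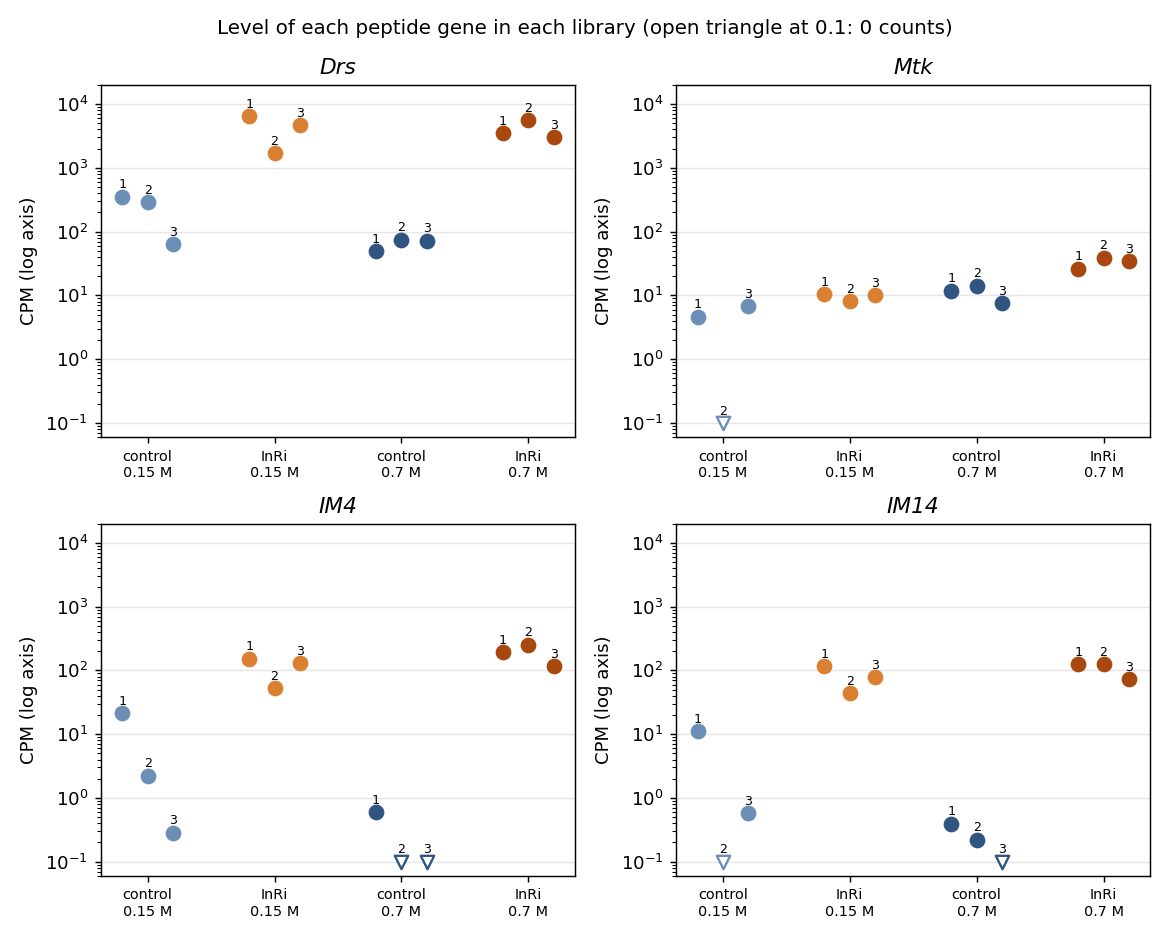
CPM of Drs, Mtk, IM4 and IM14 (log axis) in each of the 12 libraries, grouped by genotype and sucrose; each point is 1 library with its replicate number, and an open triangle drawn at 0.1 stands for 0 counts. In every panel all InRi libraries lie above all control libraries of the same food, and control 0.15 M replicate 1 lies above the other control libraries for Drs, IM4 and IM14 but not for Mtk.

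In all, 2 of the 4 genes (Drs and IM14) rose on 0.15 M sucrose, where 0.958% of the 8662 genes tested rose. On the food with 0.7 M sucrose 3 of the 4 (Drs, IM4 and IM14) rose, against 3.63% of all genes. No overlap between the groups, with InRi higher, was seen for all 4 genes on both foods, against 13.4% of all genes on 0.15 M sucrose and 18.5% on 0.7 M sucrose. Averaged over both foods all 4 genes rose, against 6.23% of all genes. Those averaged rises were 5.07 log2 units for Drs (SE 0.49, adjusted p = 7.17e-05), 6.47 for IM4 (SE 0.80, adjusted p = 0.000279) and 6.28 for IM14 (SE 0.68, adjusted p = 0.000138). Each of these 3 kept its call in all 12 omissions. Mtk rose by 1.3 log2 units (SE 0.34, adjusted p = 0.0264), or 2.47-fold. This call was lost in 7 of 12 omissions, the farthest when InRi 0.7 M replicate 2 was left out (adjusted p = 0.0727).

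**Figure D2:**
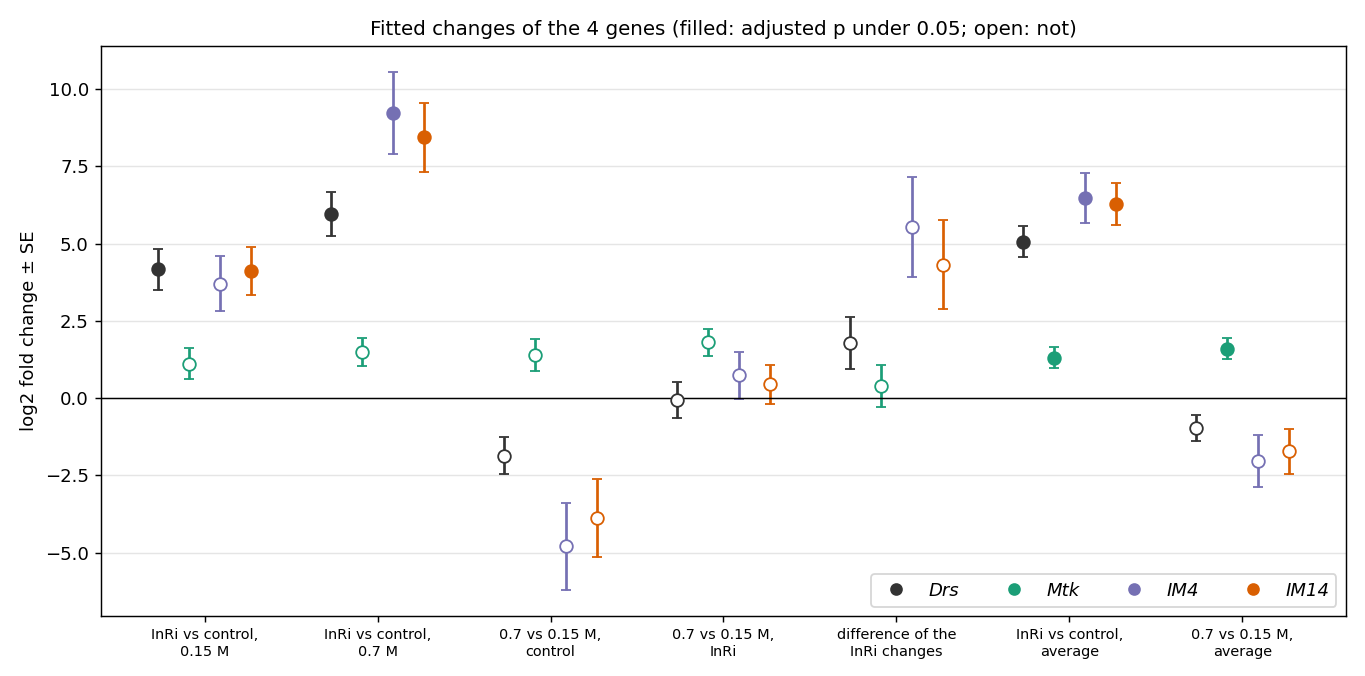
Fitted log2 fold change with its SE (bars) of each gene in 7 comparisons; the fifth is the InRi change on 0.7 M sucrose less that on 0.15 M sucrose, and filled points passed an adjusted p of 0.05. Drs, IM4 and IM14 lie between 3.71 and 9.24 in the InRi comparisons while Mtk lies between 1.11 and 1.5, and with sucrose only the average of Mtk, at 1.61, is filled.

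Sucrose had no called effect on Drs, IM4 or IM14 within either genotype in edgeR. In control the differences between 0.7 M and 0.15 M sucrose were -1.86 log2 units for Drs (SE 0.61, adjusted p = 0.285), -4.80 for IM4 (SE 1.41, adjusted p = 0.220) and -3.88 for IM14 (SE 1.27, adjusted p = 0.289). The values of the 2 foods overlapped for all 3 genes, and the 0.15 M libraries were widely spread. Without control 0.15 M replicate 1 the differences were -1.48 for Drs, -1.60 for IM4 and -0.50 for IM14. DESeq2 called IM4 lower on 0.7 M sucrose (-4.87, adjusted p = 0.0125). In InRi the differences were -0.07 for Drs (SE 0.58, adjusted p = 0.987), 0.74 for IM4 (SE 0.76, adjusted p = 0.842) and 0.44 for IM14 (SE 0.64, adjusted p = 0.911). Of all genes, 0.277% were called in control and 1.26% in InRi.

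By mean, Mtk was higher on 0.7 M sucrose in both genotypes. From 0.15 M to 0.7 M sucrose its mean went from 3.83 ± 3.50 to 11.2 ± 3.32 CPM in control and from 9.53 ± 1.26 to 33.4 ± 6.52 CPM in InRi (SD, n = 3). No 0.15 M library reached the 0.7 M range of its own genotype, which in that direction held for 8.12% of all genes in control and 14.7% in InRi. In control the gap was narrow, from 6.85 CPM on 0.15 M to 7.62 CPM on 0.7 M sucrose. The latter value is 7 counts, in a library where 3 counts are 3.27 CPM, so counting error can cover that gap. The differences of 1.41 log2 units in control (SE 0.52, adjusted p = 0.354) and 1.80 in InRi (SE 0.45, adjusted p = 0.0823) did not pass. The second passed without control 0.15 M replicate 2 (1.81, adjusted p = 0.000484), in DESeq2 (adjusted p = 0.000103) and in limma voom (adjusted p = 0.0380). That library is not part of the comparison in InRi, and its omission gave each of the 4 genes its smallest adjusted p there. Averaged over both genotypes Mtk rose by 1.61 log2 units (SE 0.34, adjusted p = 0.0256), or 3.04-fold, as 1.55% of all genes did. It was the only one of the 4 to pass there. The averaged call was lost in 8 of 12 omissions, the farthest when control 0.7 M replicate 2 was left out (adjusted p = 0.0930). In order of level, Mtk was lowest in control on 0.15 M sucrose and highest in InRi on 0.7 M sucrose. The 2 groups in between, InRi on 0.15 M and control on 0.7 M sucrose, overlapped.

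The InRi change was not shown to differ between the foods for any of the 4. The difference of the 2 changes was 1.79 log2 units for Drs (SE 0.83, adjusted p = 0.895), 0.40 for Mtk (SE 0.68, adjusted p = 0.942), 5.53 for IM4 (SE 1.62, adjusted p = 0.888) and 4.32 for IM14 (SE 1.44, adjusted p = 0.888). Of all genes, 0% passed this test in edgeR. At an unadjusted p below 0.05 edgeR had 456 of the 8662 genes tested. A threshold of 0.05 gives about that number where no gene differs. IM4 (edgeR unadjusted p = 0.00485) and IM14 (0.0106) were among the 456. DESeq2 called 17 genes, none of them among the 4. Without control 0.15 M replicate 1 the differences for IM4 and IM14 were 2.35 and 0.96.

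Single libraries decided several of these calls, and a few libraries lay at the edge of their group for many genes. On 0.15 M sucrose the largest adjusted p of each of the 4 genes came without InRi 0.15 M replicate 1, at 0.0366 for Drs, 0.0815 for IM14, 0.220 for IM4 and 0.538 for Mtk. This was not particular to them. Every gene called on that food in the lists set beside them also had its largest adjusted p without this library, among them the falling spirit, Lsp1alpha, Sgs1 and sage. Control 0.15 M replicate 1 was the highest of the 6 control libraries for Drs, IM4 and IM14. It was also the highest for 11 of 13 other Toll-induced peptides, against 13.2% of all genes, but for 2 of 6 Imd-induced peptides. InRi 0.15 M replicate 2 was the lowest library of its group for all 4 genes and for 11 of the 13, against 35.3% of all genes. It was the lowest also for 10 of 11 genes from the Toll receptor to NF-kappaB, 10 of 12 upstream genes, 10 of 15 Imd pathway genes and 6 of 8 fat body markers. It was the lowest for 0 of 7 salivary gland, 0 of 5 muscle, 0 of 4 tracheal, 1 of 7 midgut and 1 of 8 hemocyte markers, and the part of these tissues in its values was not tested.

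**Figure D3:**
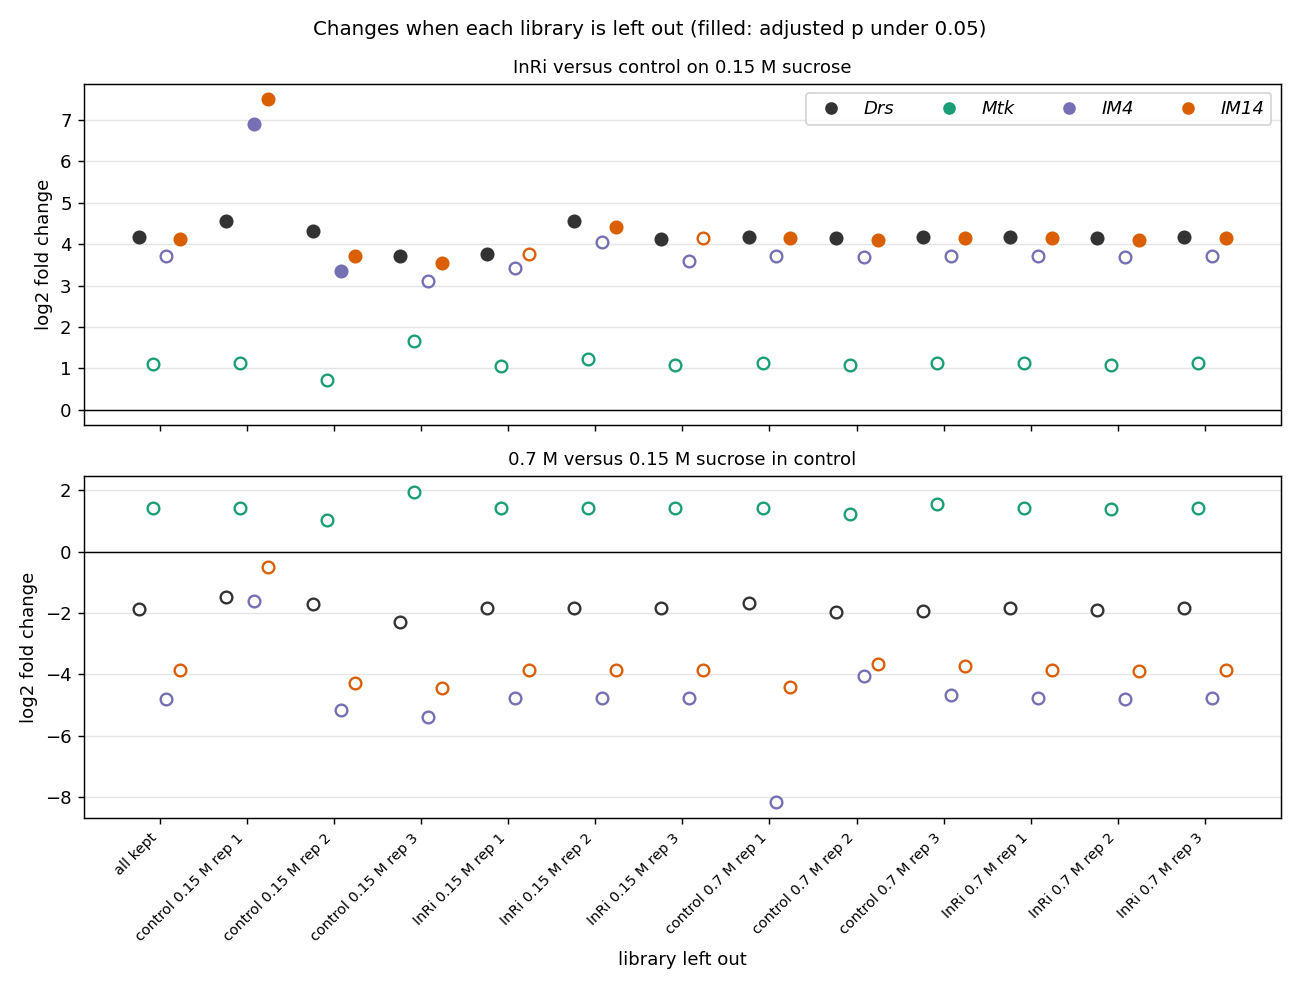
Fitted log2 fold change of each gene with all libraries kept (left) and with each of the 12 libraries left out in turn, for InRi against control on 0.15 M sucrose (top) and for 0.7 M against 0.15 M sucrose in control (bottom); filled points passed an adjusted p of 0.05. Without control 0.15 M replicate 1, IM4 and IM14 move from 3.71 and 4.12 to 6.91 and 7.50 in the top panel and from -4.80 and -3.88 to -1.60 and -0.50 in the bottom panel, while Drs and Mtk stay near their values.

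The level of Mtk relative to Drs was compared in single libraries, since both genes encode antifungal peptides. On 0.15 M sucrose the log2 ratio of Mtk to Drs was -6.13, -9.29 and -3.12 in control and -9.20, -7.64 and -8.78 in InRi. The second of these control values comes from 0 Mtk counts and is set by the prior count of 2. The ratio on 0.7 M sucrose was -2.02, -2.36 and -3.16 in control and -7.04, -7.15 and -6.43 in InRi. The genotypes were far apart on 0.7 M sucrose and overlapped on 0.15 M sucrose. Over both foods the mean was -7.71 in InRi and -4.35 in control, a difference of -3.36. An exact permutation test within each food, two-sided, gave p = 0.02 over 400 arrangements, where the smallest possible p is 0.005. With 1 library left out, p ran from 0.005 to 0.045.

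**Figure D4:**
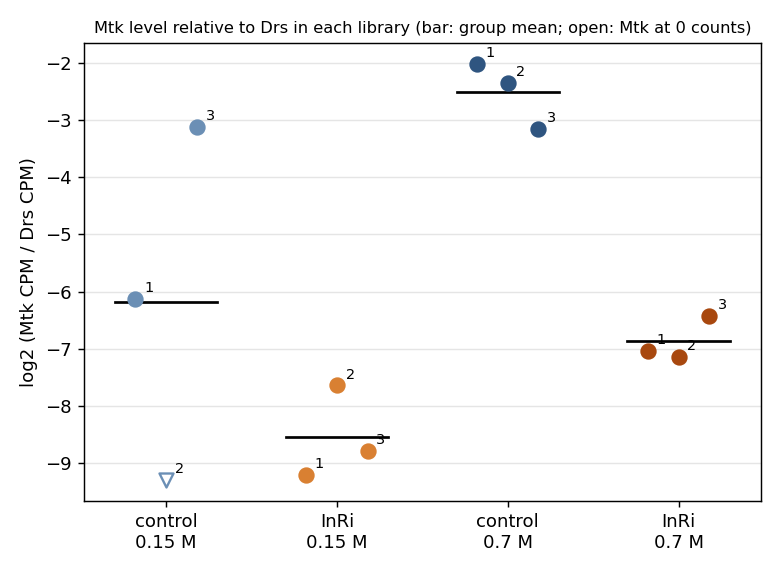
Log2 ratio of the CPM of Mtk to that of Drs in each library (points, with replicate numbers) and its group mean (bars); the open triangle is the control library with 0 Mtk counts. On 0.7 M sucrose the control libraries lie between -3.16 and -2.02 and the InRi libraries between -7.15 and -6.43.

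Per length, Drs was the most abundant of the 4 in every group, at 611 ± 397 and 169 ± 35.7 CPM per kb in control on 0.15 M and 0.7 M sucrose and 11004 ± 6160 and 10488 ± 3521 in InRi (SD, n = 3). In InRi the order below it was IM14, IM4 and Mtk on both foods, but the lowest IM14 library and the highest IM4 library were about level on each. Their levels there on 0.7 M sucrose were 484 ± 135, 243 ± 89.3 and 125 ± 24.3 CPM per kb. Not divided by length, the mean of IM4 was above that of IM14, at 112 against 79.5 CPM on 0.15 M and 187 against 108 CPM on 0.7 M sucrose. The order of IM14 and IM4 thus depends on the lengths of the later annotation, 223 and 767 bp. In control on 0.7 M sucrose Mtk came second at 41.8 ± 12.4 CPM per kb, with IM14 at 0.921 ± 0.886 and IM4 at 0.257 ± 0.445, which overlapped. In control on 0.15 M sucrose IM14, Mtk and IM4, at 17.6 ± 28.2, 14.3 ± 13 and 10.3 ± 15.1 CPM per kb, did not differ beyond their spread.

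Drs has 6 paralogs, Drsl1 to Drsl6, in the same region of 3L, and none rose with it. Drsl1, Drsl3 and Drsl6 had 0 counts in every library, Drsl4 had 2 counts in all and Drsl2 stayed at or below 1.25 CPM. Drsl5, listed as dro5, was the only one with enough counts for a test, and it moved the other way. The level of dro5 on 0.7 M sucrose was 4.15 ± 1.48 CPM in InRi and 24.8 ± 12.6 CPM in control (SD, n = 3), a difference of -2.66 log2 units (SE 0.57, adjusted p = 0.0183). That call was lost in 5 of 12 omissions (adjusted p up to 0.106), while the averaged one (-2.22, adjusted p = 0.00322) was kept in all 12. How reads that match several copies were counted is not given in the sources used here.

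The other Toll-induced peptides, mostly Bomanins, a family of short peptides needed for Toll-mediated defence, were set beside the 4. The lists of genes set beside the 4 were chosen with earlier results of these data known. Of 14 such peptides found in the table, 13 had enough counts for a test and IM18 was at 0 in all libraries. On 0.15 M sucrose 6 of the 13 rose, against 0.958% of all genes, and 0 fell. Their median was 4.10 log2 units, against 0.03 over all genes. The smallest p-values among them were those of CG15068, CG43202, CG18107 and CG16836, with rises of 4.81, 4.75, 4.10 and 4.84 log2 units. With 0.7 M sucrose 12 of the 13 rose, against 3.63% of all genes, and 0 fell. The fitted median was 8.42 log2 units, against -0.04 over all genes. Of the 13, 4 had 0 counts in control there and 4 more had 1 to 3, so most of these fitted folds rest on almost no control counts, as those of IM4 and IM14 do, and their order is not measured. With the 4 genes at 0 set to their lower bound, against 3 counts over the group, the median was 5.97. Drs, with counts in every control library, rose by 5.96. Mtk at 1.5 was close to CG16712 at 1.24, the 1 peptide that did not pass. The count on 0.15 M sucrose ran from 1, without InRi 0.15 M replicate 1, to 11, without control 0.15 M replicate 1. It fell to 2 or 3 in 6 further omissions. The count on 0.7 M sucrose was 6 without control 0.7 M replicate 2, 7 without control 0.7 M replicate 1 and 10 to 13 in the other omissions. With sucrose 0 of the 13 passed in either genotype.

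**Figure D5:**
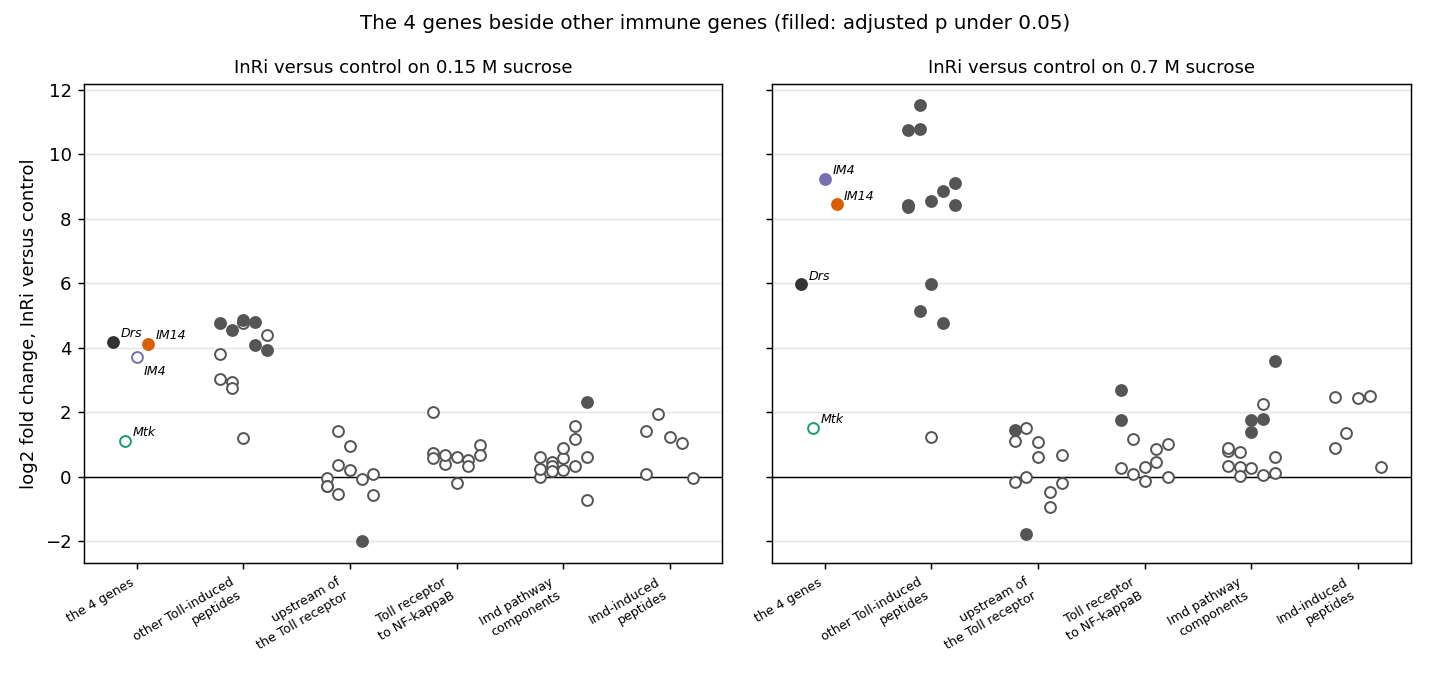
Log2 fold change of InRi against control on 0.15 M (left) and 0.7 M sucrose (right) for the 4 genes (coloured, named) and for the tested genes of 5 immune lists (grey); each point is 1 gene, and filled points passed an adjusted p of 0.05. Drs, IM4 and IM14 lie in the range of the other Toll-induced peptides, and Mtk lies at 1.11 and 1.5, within the range of the Imd-induced peptides on both foods and, on 0.7 M sucrose, also within that of the Toll-induced peptides (from 1.24).

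By median, genes of the Toll pathway itself had smaller differences than its peptides, though Tl and Dif exceeded Mtk on 0.7 M sucrose. From the receptor to NF-kappaB, 0 of 11 genes passed on 0.15 M sucrose (median 0.60 log2 units). On the food with 0.7 M sucrose 2 of the 11 rose (median 0.45), against 3.63% of all genes. Tl, the receptor, was at 340 ± 93.9 CPM in InRi and 52.8 ± 5.34 CPM in control (SD, n = 3), a rise of 2.69 log2 units (SE 0.57, adjusted p = 0.0166). Dif, one of the NF-kappaB factors that act on these peptide genes, was at 33.4 ± 1.48 against 9.88 ± 1.83 CPM, a rise of 1.75 (SE 0.30, adjusted p = 0.00472). The call of Tl was lost in 4 of 12 omissions and that of Dif in none. Averaged over both foods 4 of the 11 rose, against 6.23% of all genes. Tl rose there by 2.35 log2 units (adjusted p = 0.00257) and Dif by 1.24 (adjusted p = 0.00221), both kept in all 12 omissions. The second NF-kappaB factor dl rose by 0.91 (adjusted p = 0.0264, lost in 7 of 12 omissions) and the adaptor gene Myd88 by 0.68 (adjusted p = 0.0402, lost in 9). The gene cact, itself a Toll target, encodes the inhibitor that holds these factors in the cytoplasm, and it is named after its values were seen. On 1 food taken alone, cact differed between the genotypes by 1.0 log2 units (SE 0.45, adjusted p = 0.257). This change differed by 0.01 log2 units between the foods (SE 0.64), so its fitted size was nearly the same on both and in their average. There cact did not pass, and it was therefore not among the 4 that rose.

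The 12 genes of recognition and proteolysis upstream of the receptor had medians of -0.05 log2 units on 0.15 M sucrose and 0.30 on 0.7 M sucrose. Among them spirit, a protease gene, fell by 2.0 log2 units on 0.15 M sucrose (adjusted p = 0.0442, lost in 9 of 12 omissions), where 0.773% of all genes fell. The gene nec encodes a serpin that restrains the cascade. It rose by 1.45 (adjusted p = 0.0306, lost in 6 of 12 omissions) on 0.7 M sucrose, where 3.63% of all genes rose. PGRP-SD, a recognition protein gene, fell there by 1.77 (adjusted p = 0.00427, lost in none), as 1.79% of all genes did. Averaged over both foods 2 of the 12 fell, against 5.13% of all genes, and 2 rose, against 6.23%. The falls were 1.47 log2 units for spirit (adjusted p = 0.0103) and 1.15 for PGRP-SD (adjusted p = 0.00337), and each was kept in all 12 omissions. The ligand gene spz rose by 1.46 (adjusted p = 0.0304, lost in 8 of 12 omissions), and GNBP1, a recognition gene, rose by 1.01 (adjusted p = 0.0471, lost in 9).

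The Imd pathway, which also acts on Mtk, was compared in the same way. Of 15 pathway genes 1 rose on 0.15 M sucrose, against 0.958% of all genes, and 4 rose on 0.7 M sucrose, against 3.63%. None fell on either food, with medians of 0.46 and 0.76 log2 units. PGRP-SC2, whose product breaks down peptidoglycan, rose by 2.30 log2 units on 0.15 M sucrose (adjusted p = 0.0171, lost without InRi 0.15 M replicate 1 at 0.0804) and by 3.59 on 0.7 M sucrose (adjusted p = 0.00108, lost in none). The other 3 on 0.7 M sucrose were Rel, the NF-kappaB factor of this pathway (1.80, adjusted p = 0.0404, lost in 8 of 12 omissions), BG4, the Fadd adaptor gene (1.77, adjusted p = 0.0163, lost in 4), and PGRP-LB (1.38, adjusted p = 0.0247, lost in 4). Of the 12 Imd-induced peptide genes 6 had enough counts, and 0 passed between the genotypes on either food, with medians of 1.13 and 1.90 log2 units. Averaged over both foods 3 of the 6 rose, against 6.23% of all genes and in the one comparison of the genotypes where Mtk also passed. DptB rose by 1.64 log2 units (adjusted p = 0.0168, lost in none of 12 omissions), AttA by 1.83 (adjusted p = 0.0358, lost in 8) and AttB by 1.77 (adjusted p = 0.0377, lost in 8). With sucrose in InRi, where Mtk was also higher, 1 of the 6 passed, against 1.26% of all genes. This was DptB, which encodes a diptericin. It was at 13.6 ± 4.34 CPM on 0.7 M and 2.28 ± 0.282 CPM on 0.15 M sucrose (SD, n = 3), a rise of 2.56 log2 units (SE 0.42, adjusted p = 0.0121, lost in 3 of 12 omissions). The list was split there, with 3 of the 6 higher and a median of 0.39. AttA, AttB and Dro were lower, at -0.18, -0.98 and -0.69 log2 units, and did not pass.

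The genes whose log2 CPM followed each of the 4 most closely over the 12 libraries were named by Pearson's r among all genes tested. For IM14 they were IM2 (r = 0.998), CG15067, IM1, CG18107 and CG6788, and for IM4 they were CG15067 (r = 0.988), IM2, IM23, IM1 and CG18107. For Drs they were CG8160 (r = 0.978), CG18107, prc, CG15067 and CG30026. Of these, IM1, IM2, IM23, CG18107 and CG15067 are Bomanin genes. Between the members r was 0.974 for Drs and IM4, 0.977 for IM4 and IM14 and 0.949 for Drs and IM14, but 0.378 to 0.567 for Mtk with the others. The points share the 12 libraries, their depth and the gap between the genotypes. Within the 6 control libraries alone r was 0.840 for IM4 and IM14, 0.853 for Drs and IM4, 0.528 for Drs and IM14 and -0.717 for Drs and Mtk. Within the 6 InRi libraries alone these values were 0.961, 0.822, 0.834 and 0.214. In control, IM4 and IM14 had 78 and 41 counts in 0.15 M replicate 1 and at most 3 and 2 in any other library. The control values with IM4 or IM14 therefore rest largely on that library. The control value for Drs and Mtk includes 0.15 M replicate 2, where Mtk had 0 counts.

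For Mtk the closest genes were CG1103 (r = 0.973), CG4673, Cyp4p1, Pk92B and Su(z)2. Of these, 0 of 5 were among its closest 5 without control 0.15 M replicate 2, where Mtk had 0 counts. The closest were then CG15094 (r = 0.963) and the diptericin gene DptB (r = 0.962, 11 libraries). For IM14 all 5 of the closest genes were the same without that library, for IM4 4 of 5 and for Drs 3 of 5. Within the control libraries alone the closest 5 shared 2 of these genes for IM14, 1 for IM4, 0 for Drs and 0 for Mtk, and within the InRi libraries alone they shared 0 for each of the 4.

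Markers of other tissues moved between the same groups. The 7 salivary gland markers, mostly glue genes, summed to 1342 to 2394 CPM in control and 48.1 to 1573 CPM in InRi on 0.15 M sucrose, where 2 of 7 fell, against 0.773% of all genes. With 0.7 M sucrose they summed to 2361 to 5463 CPM in control and 7.73 to 96.9 CPM in InRi, where 7 of 7 fell, against 1.79% of all genes. The 8 hemocyte markers, genes of the blood cells, which also make immune peptides, summed to 727 to 1839 CPM in control and 691 to 1084 CPM in InRi on 0.15 M sucrose, where 0 of 8 passed. The sums on 0.7 M sucrose were 503 to 709 CPM in control and 852 to 921 CPM in InRi, and Pxn alone rose. Most of the InRi sum was Pxn, at 658 ± 71.4 CPM (SD, n = 3). By gene, 2 of the 8 hemocyte markers were higher in InRi there, with a median of -0.24 log2 units. None of the 7 midgut, 5 muscle and 4 tracheal markers passed between the genotypes on either food. Of the fat body markers, Lsp1alpha fell on both foods. None of the salivary gland or hemocyte markers was at 0 in any group, and their part in the values of the 4 genes was not tested.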

How the data were processed

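The deposited values were whole-number counts per gene, 1 column for each of 12 libraries. Per the submitters' processing notes, TopHat 1.3.2, Bowtie 0.12.7 and Cufflinks 1.1.0 were used with the dm3 build, and the labels' protocols describe ribosomal RNA removal with RiboZero from sheared and centrifuged fat bodies. The sources used here do not give the counting tool or say whether strand was used. All results were computed from the counts in R 4.3.3: edgeR 4.0.16 with TMM scaling and filterByExpr (minimum count 10, minimum total 15), which left 8662 genes of 15222, then a quasi-likelihood fit with 1 mean per group over all 12 libraries and Benjamini-Hochberg adjustment over all genes tested. A gene passed at an adjusted p under 0.05. Each SE is the absolute fitted log2 fold change divided by the square root of its quasi-likelihood F statistic, so it is derived from the test. Values per library are CPM with the TMM scaling, and log2 CPM used a prior count of 2.

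The 4 genes and the lists were chosen with earlier results of these data known. From each list up to 4 genes per comparison with the smallest p among those called were named, with every Drs paralog, and for each of the 4 genes the 5 most alike by Pearson's r. BDGP6, a later build, served for names, lengths (14894 genes) and neighbours. Intervals and floors of 3 counts cover counting error only. Libraries with the same replicate number did not vary together: the correlation of their deviations from the group means was -0.367 to 0.161 over 18 pairs, so replicates were not treated as paired. No pair of libraries was alike within sampling noise (smallest chi-square per gene 3.08). The fit was tested on simulated data. DESeq2 1.42.0, limma voom (limma 3.58.1), other scalings, no filter, only the groups compared, a replicate block and the omission of each library were tried as alternatives. Leaving out both control libraries of low total was added after the data were seen, as were the likeness within 1 genotype, the list counts in each omission and the median with genes at 0 set to their bound.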

Additional observations from a re-analysis of the deposited data

How the results depend on the processing

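Over the 7 comparisons, 502 alternative values of the 4 genes' log2 fold changes kept their direction and their side of the threshold, 16 gained a call, 21 lost one and 7 turned. The turned values lay near 0: Drs with sucrose in InRi was 0.0842 in limma voom and -0.45 to 0.36 with 1 library left out, and the interaction of Mtk was -0.24 in limma voom and -0.15 to 0.78 with 1 library left out. The 15 alternative values of the Mtk to Drs ratio kept direction and call. The cause of the changes below was not tested.

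The number of genes called depended on the libraries kept. With 1 library left out it ran from 43 to 383 (150 with all) for InRi against control on 0.15 M sucrose and from 137 to 1643 (469) on 0.7 M sucrose. With sucrose it ran from 4 to 134 (24) in control and from 7 to 594 (109) in InRi. It ran from 0 to 2 (0) for the interaction, from 521 to 1993 (984) for InRi averaged and from 109 to 636 (203) for sucrose averaged. In that order, DESeq2 called 559, 836, 180, 312, 17, 1526 and 482 genes. With both control libraries of low total left out the counts were 305, 1397, 42, 474, 1, 1872 and 441. At an adjusted p under 0.1, the 4 pairwise comparisons gave 352, 747, 73 and 168 genes and the averaged ones 1532 and 351. A fit to only the 2 groups compared called 0, 1700, 0 and 343 genes in the pairwise comparisons. For sucrose in control limma voom called 10 genes, and 58 were called without a filter.

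Of the 4 genes, 1 to 3 were called for InRi on 0.15 M sucrose with 1 library left out and 0 in the fit to only those groups. With sucrose in control DESeq2 called 1 (IM4). With sucrose in InRi 0 to 1 were called with 1 library left out. There 1 (Mtk) was called by DESeq2, by limma voom, in the fit to only those groups, without both control libraries of low total and at the threshold of 0.1. With sucrose averaged 0 to 1 were called with 1 library left out.

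With the replicate number as a replicate block, although the libraries share only a number, 305 genes were called for InRi on 0.7 M sucrose, 11 for sucrose in control and 53 for sucrose in InRi. IM4 on 0.15 M sucrose then passed (4.31, adjusted p = 0.0449). The averaged calls of Mtk ended with InRi (1.31, adjusted p = 0.0574) and with sucrose (1.64, adjusted p = 0.0684), so that 0 of the 4 were called with sucrose averaged. Of the 12 libraries 2 correlated best with their own number.

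Depth limits IM4 and IM14 in control, where 3 counts in 3 libraries set the fold on 0.7 M sucrose, and Mtk, with 0 to 162 counts per library.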
